A study of Homo sapiens with 9 samples.

Results

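Chromosome 16 accessible sites are the ATAC-seq peaks that lie on human chromosome 16 in HEK293T cells, an established embryonic kidney line. In all, 5576 of the 194414 peaks in 4 lists were taken, by the chromosome name alone. The chromosome was selected on its share of peaks, which was lower in the IGF2BP3 knockout list than in the control list. All measures of that pair of lists are therefore given as descriptions, without a test.

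The control list came from 2 libraries of cells that received a guide RNA matching no mammalian gene (batches 2 and 3). The IGF2BP1 knockout list came from 3 libraries (batches 1, 2 and 3). The IGF2BP2 knockout and IGF2BP3 knockout lists came from 2 libraries each (batches 2 and 3). Cells had no other treatment. A plasmid that does not integrate, carrying 3 guides against the gene together with GFP, was transfected transiently, and GFP-positive single cells were sorted. Each knockout was 1 clone, so its genotype cannot be told apart from the clone, and batch 1 is in the IGF2BP1 knockout alone. Each group is represented by 1 list, with no values for single libraries. No replicate spread, no test and no within-batch value can therefore be given, and how deeply each group was sequenced is unknown. Intervals below are 95% intervals that cover counting error over peaks only.

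ATAC-seq uses a transposase that inserts adapters into DNA free of nucleosomes, so a peak marks a promoter, an enhancer or another open site. A peak is wider where open chromatin extends further or where signal stays above the caller's threshold over more bases. Chromosome 16 carries many genes near the end of its short arm, among them the alpha globin genes, and recently duplicated gene families along the rest of that arm. Its long arm starts with a block of satellite repeats and holds the metallothionein genes, several cadherins and long genes such as WWOX, ZFHX3 and CDH13. IGF2BP1, IGF2BP2 and IGF2BP3 are RNA-binding proteins of the cytoplasm that stabilise their target mRNAs.

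A peak lay over each promoter below in the control, IGF2BP1 knockout and IGF2BP2 knockout lists, and none in the IGF2BP3 knockout list. Those shown have the highest GC content among 11 stretches in regions that the IGF2BP3 knockout list alone lacked. Median GC content of the 11 was 52.4%, against 68.4% for stretches in regions of all 4 lists. Each printed stretch is the 250 bases before a transcription start, 5′ to 3′ on the strand of the gene, from RefSeq (GRCh38.p14). Capitals mark the GC box GGGCGG, a binding site of SP factors, and the ETS motif CCGGAAG, on either strand. METRN (chr16:714868-715117, plus strand) encodes meteorin, a secreted factor of glial and neuronal development. PKD1-AS1 (chr16:2091186-2091435, plus strand) is a long noncoding RNA inside PKD1, the gene of polycystin-1. CCP110 (chr16:19523692-19523941, plus strand) encodes a centriole protein that holds back cilium formation. TNRC6A (chr16:24729401-24729650, plus strand) encodes a scaffold of microRNA silencing, and the start shown is an internal one of that gene. LOC112694756 (chr16:30052901-30053150, plus strand) is a protein-coding gene without an established name, and its start lies in the same region as TLCD3B.
METRN: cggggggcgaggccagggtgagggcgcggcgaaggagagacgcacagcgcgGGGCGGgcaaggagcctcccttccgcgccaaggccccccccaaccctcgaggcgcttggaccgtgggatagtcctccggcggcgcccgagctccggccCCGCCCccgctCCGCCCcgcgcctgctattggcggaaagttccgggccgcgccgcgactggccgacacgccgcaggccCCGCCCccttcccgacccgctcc
PKD1-AS1: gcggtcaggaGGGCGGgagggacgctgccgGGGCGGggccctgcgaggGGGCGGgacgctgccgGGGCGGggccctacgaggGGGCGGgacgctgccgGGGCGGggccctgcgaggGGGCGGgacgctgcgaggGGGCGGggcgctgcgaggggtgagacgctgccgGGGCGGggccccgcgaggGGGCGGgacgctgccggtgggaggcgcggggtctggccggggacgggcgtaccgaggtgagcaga
CCP110: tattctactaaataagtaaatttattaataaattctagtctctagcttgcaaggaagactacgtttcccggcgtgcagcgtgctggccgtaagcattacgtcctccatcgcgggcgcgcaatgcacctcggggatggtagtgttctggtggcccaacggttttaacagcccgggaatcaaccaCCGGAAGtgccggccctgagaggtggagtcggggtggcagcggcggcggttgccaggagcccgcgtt
TNRC6A: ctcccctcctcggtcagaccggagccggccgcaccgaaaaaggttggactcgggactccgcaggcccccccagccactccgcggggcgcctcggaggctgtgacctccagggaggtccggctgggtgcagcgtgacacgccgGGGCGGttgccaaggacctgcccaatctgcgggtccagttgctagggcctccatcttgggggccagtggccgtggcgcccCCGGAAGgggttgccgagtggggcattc
LOC112694756: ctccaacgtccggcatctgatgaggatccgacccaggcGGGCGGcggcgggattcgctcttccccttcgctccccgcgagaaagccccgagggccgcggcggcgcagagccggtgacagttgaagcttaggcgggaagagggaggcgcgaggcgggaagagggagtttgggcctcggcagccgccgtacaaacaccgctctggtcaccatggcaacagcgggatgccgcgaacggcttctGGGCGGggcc

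These 5 stretches differ in base composition. GC content was 78.4% for METRN, 83.6% for PKD1-AS1, 56.0% for CCP110, 71.6% for TNRC6A and 69.6% for LOC112694756. The GC box was found 4 times in the METRN stretch, 10 times in that of PKD1-AS1, 2 times in that of LOC112694756 and 1 time in that of TNRC6A. CCP110 had no GC box and 1 ETS motif, and TNRC6A also had 1 ETS motif.

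The 4 lists differed in how many of their peaks lay on the chromosome. The control list held 1273 of 39194 peaks there (3.25%, Wilson interval 3.08 to 3.43). The IGF2BP1 knockout list held 1479 of 50917 (2.90%, 2.76 to 3.05), and the IGF2BP2 knockout list held 1705 of 60262 (2.83%, 2.70 to 2.96). The IGF2BP3 knockout list held 1119 of 44041 (2.54%, 2.40 to 2.69). It was thus the only one of the 3 knockout lists with fewer chromosome 16 peaks than the control, although it was longer in all. Relative to the control share, the IGF2BP1 knockout stood at 0.894 (0.831 to 0.963), the IGF2BP2 knockout at 0.871 (0.811 to 0.936) and the IGF2BP3 knockout at 0.782 (0.723 to 0.847).

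In the control list the median peak on the chromosome was 810 bp wide. The medians of the IGF2BP1, IGF2BP2 and IGF2BP3 knockout lists were 850, 677 and 761 bp. On the other chromosomes they were 770 bp in the control and 834, 650 and 712 bp in the knockouts, so chromosome 16 peaks were wider than the rest in each list. Peaks covered 1.11 Mb of the chromosome in the control, 1.40 Mb in the IGF2BP1 knockout, 1.30 Mb in the IGF2BP2 knockout and 0.908 Mb in the IGF2BP3 knockout. The narrowest chromosome 16 peak in any list was 226 bp and the widest 3215 bp.

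The share was also taken separately for peaks at and away from gene starts. A site is called at a gene start here when it lies within 1 kb of a protein-coding start, or of either gene end where the reference gives no strand. Among peaks at gene starts, the chromosome 16 share relative to control was 1.01 (0.897 to 1.13) for the IGF2BP1 knockout, 1.01 (0.896 to 1.13) for the IGF2BP2 knockout and 0.964 (0.857 to 1.08) for the IGF2BP3 knockout. Away from gene starts the 3 ratios were 0.875 (0.795 to 0.963), 0.871 (0.795 to 0.955) and 0.683 (0.614 to 0.761).

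Both arms had a lower share in the IGF2BP3 knockout list. The arms were divided at 42297130, the middle of the longest stretch without a peak in any list (chr16:38207877-46386383, 8.18 Mb), which stands in for the centromere and the adjoining repeats. The short arm held 623 control peaks, 674 in the IGF2BP1 knockout, 801 in the IGF2BP2 knockout and 529 in the IGF2BP3 knockout. Its shares relative to control were 0.833 (0.747 to 0.928), 0.836 (0.754 to 0.928) and 0.756 (0.674 to 0.848). The long arm held 650, 805, 904 and 590 peaks in the same order. There the ratios were 0.953 (0.860 to 1.06), 0.905 (0.818 to 1.000) and 0.808 (0.723 to 0.902). Median width in the IGF2BP3 knockout was 800 bp on the short arm and 720 bp on the long arm, against 840 and 785.5 bp in the control.

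In 5 Mb windows, numbered from the end of the short arm, the lower share was spread along the chromosome. The log2 ratio of shares (IGF2BP3 knockout over control, pseudocount 0.5) was below 0 in 15 of the 15 windows with at least 20 control peaks. Over all chromosomes, 53.0% of such windows had a lower share in the IGF2BP3 knockout list. The median log2 ratio was -0.36 on chromosome 16 and -0.01 on the other chromosomes. In the IGF2BP1 knockout, 13 of 15 windows were below 0 with a median of -0.15, and in the IGF2BP2 knockout 13 of 15 with a median of -0.19. Windows 11 and 16 (50 to 55 and 75 to 80 Mb) were the ones above 0 in those 2 knockouts.

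The lowest IGF2BP3 knockout ratio was -0.82 at 5 to 10 Mb, a gene-poor stretch around RBFOX1, where the control had 27 peaks and the IGF2BP3 knockout 17. It was followed by -0.57 at 15 to 20 Mb (57 and 43 peaks) and -0.48 at 10 to 15 Mb (61 and 49 peaks). These 3 neighbouring windows of the short arm held 15, 36 and 36 protein-coding genes. The ratios nearest to 0 were -0.19 at 55 to 60 Mb (85 and 84 peaks), -0.20 at 45 to 50 Mb (51 and 50) and -0.22 at 85 to 90 Mb (155 and 150). The first of them holds the metallothionein cluster. At the gene-dense end of the short arm, 0 to 5 Mb with 197 protein-coding genes, the peaks numbered 225, 245, 275 and 197 in the control, IGF2BP1, IGF2BP2 and IGF2BP3 knockout lists. In the window at 60 to 65 Mb, which has 1 protein-coding gene, the lists held 5, 7, 6 and 1 peaks, too few for a ratio.

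**Figure D1:**
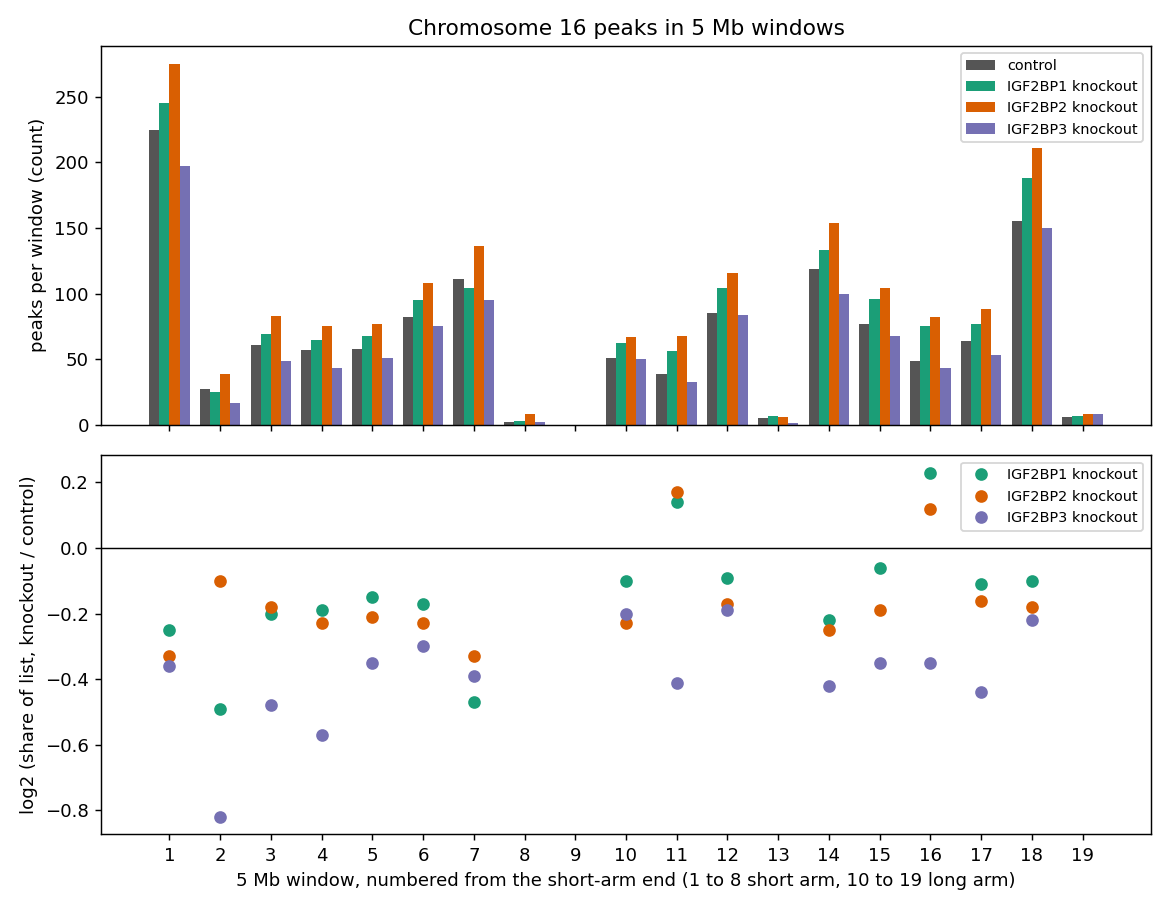
Peaks of chromosome 16 per 5 Mb window in each of the 4 lists (upper panel, bars, count) and the log2 ratio of each knockout list's share to the control share in windows with at least 20 control peaks (lower panel, points). The IGF2BP3 knockout points lie between -0.82 and -0.19, all below the line at 0, and the largest counts are in windows 1 and 18 near the chromosome ends.

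Overlapping peaks of the 4 lists were merged into 1906 regions on the chromosome. All 4 lists held 924 of them (48.5%, against 41.3% on the other chromosomes). The IGF2BP3 knockout alone held 40 (2.10%, against 4.97%), and the IGF2BP1 and IGF2BP2 knockouts without the others held 167 (8.76%, against 7.89%). The control, IGF2BP1 knockout and IGF2BP2 knockout lists held 1103 regions in common, and 179 of these (16.2%, 14.2 to 18.5) had no IGF2BP3 knockout peak. Absence from a list means that no peak passed the caller's threshold there, at a depth that is unknown. In the full lists 11.1% of such regions had none over all chromosomes, and 10.9% over the other chromosomes (3511 of 32273). With each list shortened to its 39194 widest peaks, 94 regions were absent in place of 179. That was 11.1% in place of 16.2%, against 7.42% on the other chromosomes in the shortened lists. Since the chromosome was selected on the same pair of lists, nothing is read from these gaps.

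The 3 other ways of lacking 1 list gave shares below those of the whole genome. The control list lacked 81 of 1005 regions held by the 3 knockouts (8.06%), against 14.2% over all chromosomes. The IGF2BP1 knockout lacked 17 of 941 (1.81%), against 3.15%, and the IGF2BP2 knockout lacked 13 of 937 (1.39%), against 2.12%. Among 23 chromosomes, chromosome 16 had the second highest share of regions absent from the IGF2BP3 knockout list, after chromosome 2 (20.6%, 19.1 to 22.3). Chromosome 7 followed with 13.2%, and chromosome 17 had the lowest share, 3.76%.

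**Figure D2:**
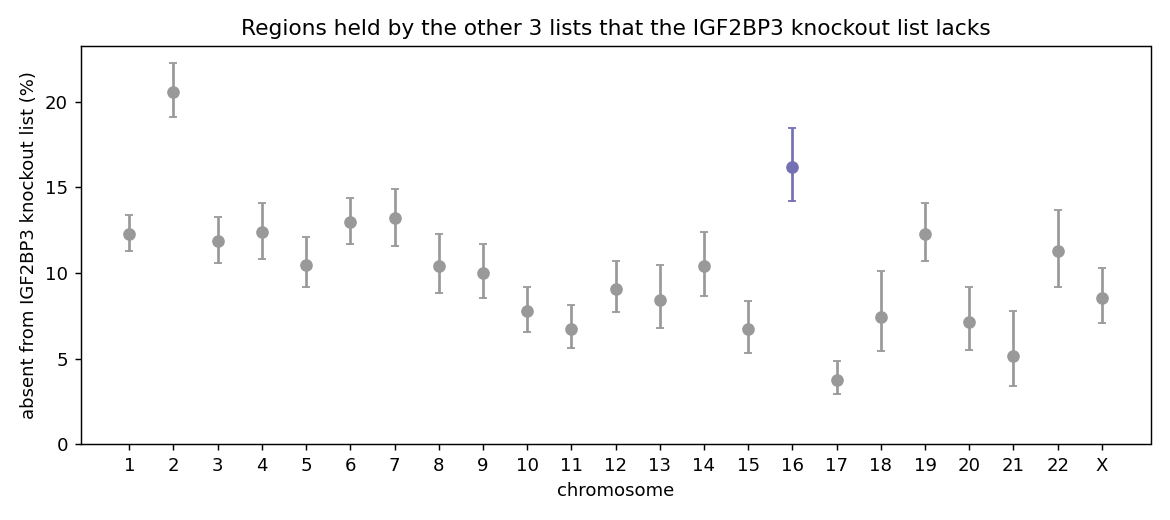
Percentage of regions held by the control, IGF2BP1 and IGF2BP2 knockout lists that have no IGF2BP3 knockout peak, by chromosome, with 95% Wilson intervals for counting error. Chromosome 16 (coloured, 16.2%) is second to chromosome 2 (20.6%).

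Regions absent from the IGF2BP3 knockout list were found on both arms at close to the same rate, 88 of 544 on the short arm (16.2%, 13.3 to 19.5) and 91 of 559 on the long arm (16.3%, 13.5 to 19.6). By window the share was highest at 15 to 20 Mb (15 of 49, 30.6%), 10 to 15 Mb (15 of 55, 27.3%), 80 to 85 Mb (13 of 50, 26.0%) and 5 to 10 Mb (5 of 20). It was lowest, among windows with at least 20 control peaks, at 55 to 60 Mb (6 of 76, 7.89%) and 25 to 30 Mb (7 of 75, 9.33%). The window at 60 to 65 Mb lacked 4 of 5 regions.

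The absent regions had narrow control peaks, with a median of 537 bp (quartiles 476.5 and 724.5) against 935.5 bp for regions in all 4 lists. When the control peak was at most 400 bp wide, 22 of 40 regions were absent (55.0%, against 41.3% on the other chromosomes). At 400 to 600 bp it was 85 of 215 (39.5%, against 23.7%), and at 600 to 800 bp 44 of 224 (19.6%, against 11.7%). Between 800 and 1200 bp it was 23 of 379 (6.07%, against 4.62%), and above 1200 bp 5 of 245 (2.04%, against 1.55%). Absence thus went with a narrow control peak on chromosome 16 as elsewhere. The chromosome was selected on the same pair of lists, so nothing is read from its higher share at each width. Above 800 bp the gaps were small, and no interval was computed for the width classes.

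**Figure D3:**
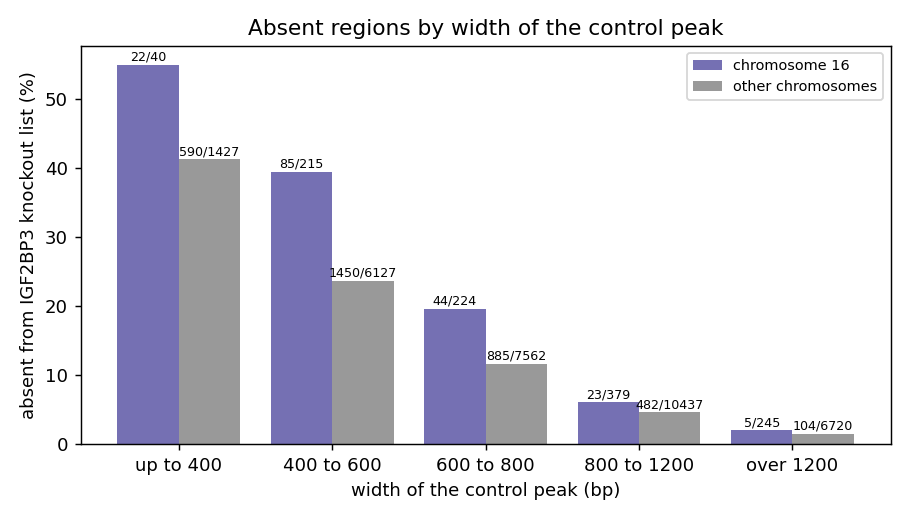
Percentage of regions held by the other 3 lists that the IGF2BP3 knockout list lacks, by width of the control peak (bp), on chromosome 16 and on the other chromosomes, with the counts above the bars. The chromosome 16 bars fall from 55.0% at the narrowest peaks to 2.04% at the widest and stand above the grey bars in each class.

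Few of the absent regions lay at gene starts. At a protein-coding gene start 18 of 516 regions were absent (3.49%, 2.22 to 5.45), against 1.53% on the other chromosomes. Away from gene starts it was 161 of 587 (27.4%), against 16.3%. Either gene end served as the start for a larger share of genes on chromosome 16 than elsewhere, so these shares are not fully alike. The absent regions lay a median of 22.0 kb from the nearest start, and 117 of 179 (65.4%) lay within a protein-coding gene, compared with 693 of 924 (75.0%) of the regions in all 4 lists. As to the margin of the rule, 6 of the 179 lay within 1 kb of an IGF2BP3 knockout peak, with a smallest gap of 298 bp and a median gap of 22.9 kb. On the other side, 2 of the regions in all 4 lists had under 100 bp in common between control and IGF2BP3 knockout peaks, with a smallest overlap of 9 bp.

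Ranked by the smallest width in the 3 lists that held them, the widest absent region at least 1 kb from an IGF2BP3 knockout peak was that of METRN (chr16:714769-716209). It spans the start of the gene, with a control peak of 1422 bp, an IGF2BP1 knockout peak of 1365 bp and an IGF2BP2 knockout peak of 1401 bp. The nearest IGF2BP3 knockout peak was 4307 bp away. The second was in ADCY9, an adenylyl cyclase that makes cyclic AMP (chr16:3960252-3961756), with 1212, 1485 and 1345 bp in the same order. At PKD1 and PKD1-AS1 (chr16:2090546-2092043), the promoter printed above with 10 GC boxes, the peaks were 1334, 1163 and 1290 bp, and the nearest IGF2BP3 knockout peak was 32812 bp away. The region shared by TLCD3B and LOC112694756 (chr16:30052812-30053970) had peaks of 1121, 1148 and 1155 bp. At METRN and at TLCD3B the 3 lists gave nearly the same width.

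Further wide absent regions lay inside long genes. In FTO, an RNA demethylase that removes methyl groups from adenosine, the region chr16:53990901-53992338 had peaks of 1074, 1428 and 1332 bp in the control, IGF2BP1 and IGF2BP2 knockout lists, 201231 bp from the nearest IGF2BP3 knockout peak. In USP10, a deubiquitinating enzyme, they were 1108, 989 and 1221 bp (chr16:84753732-84755025). MRTFB, a coactivator of serum response factor, held absent regions of 889, 1267 and 1309 bp (chr16:14185822-14187130) and of 825, 1352 and 932 bp (chr16:14013148-14014499). The first of these lies at an internal start of the gene. CHD9, a chromodomain helicase, had 821, 841 and 828 bp at an internal start (chr16:53207858-53208698). The widths show that the control peak was the narrowest of the 3 at FTO, CHD9 and both MRTFB regions.

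GSE1, a protein of histone deacetylase complexes, held regions of 891, 902 and 902 bp (chr16:85221881-85222820) and of 1178, 1062 and 815 bp (chr16:85553341-85554518). The first of the 2 had an IGF2BP3 knockout peak 1141 bp away. ZFHX3, a homeobox transcription factor with zinc fingers, held one of 810, 960 and 803 bp (chr16:72989551-72990510). WWOX, an oxidoreductase gene that spans a common fragile site, held one of 795, 1760 and 1450 bp (chr16:78461311-78463070). CTCF, the insulator-binding protein, had an absent region inside the gene of 710, 872 and 709 bp (chr16:67601003-67601904), 38.5 kb from the nearest start. RAB40C, a small GTPase, had one of 908, 766 and 712 bp (chr16:610615-611526).

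The rest of the 24 named regions lay in CES5A, a carboxylesterase, in noncoding genes or between genes. The widest of these overlapped the noncoding LINC02192 and LINC02133 (chr16:47886523-47887906), with 1175, 1360 and 1263 bp, 185 kb from PHKB. Another, in LOC107984892, was 15.4 kb from HNRNPA1L3. The region in LOC124903643 beside LITAF had 719, 1612 and 1537 bp. Of the others, those near CLEC18C, C16orf95, JPH3, MT1X and SMG1 lay 9.17, 255, 30.0, 17.5 and 19.3 kb from these genes. Control widths of those 5 ranged from 720 to 892 bp.

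**Figure D4:**
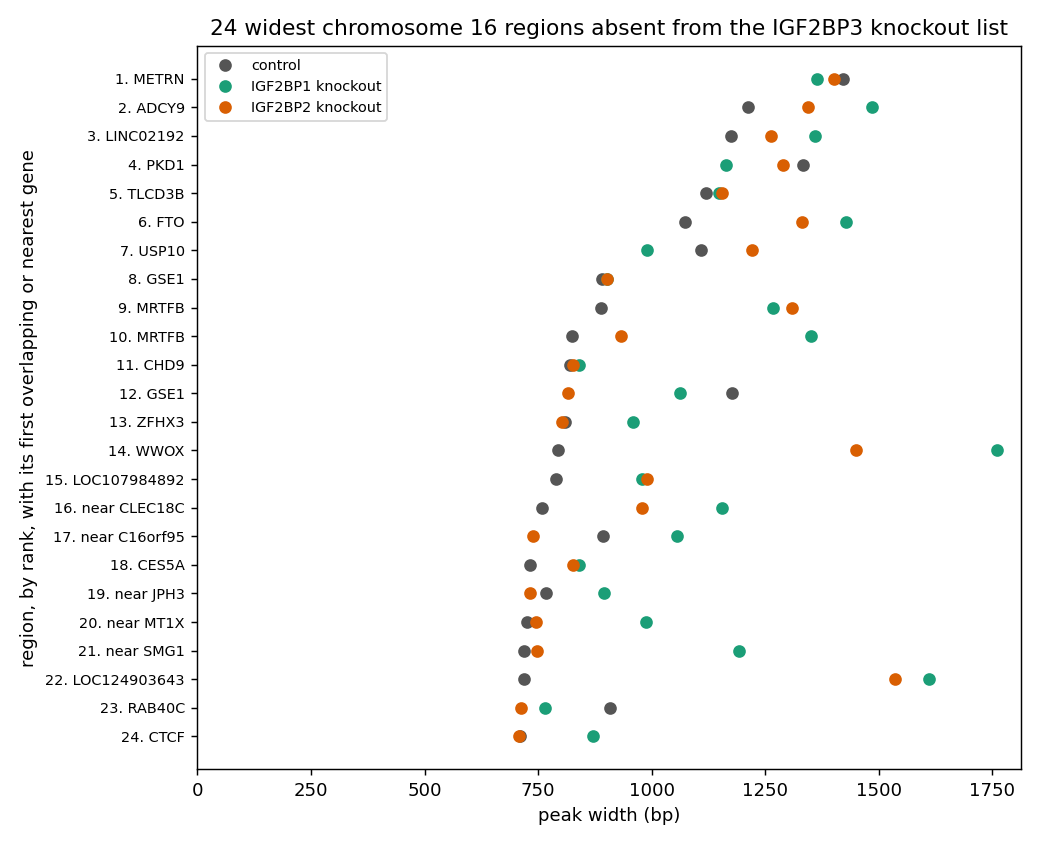
Peak width (bp) in the control, IGF2BP1 knockout and IGF2BP2 knockout lists at the 24 widest regions at least 1 kb from an IGF2BP3 knockout peak that the IGF2BP3 knockout list lacks. Widths run from 709 bp (CTCF) to 1760 bp (WWOX), and at METRN and TLCD3B the 3 points lie close together.

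Some genes held several absent regions. In all, 96 protein-coding genes overlapped at least 1, 17 at least 2 and 6 at least 3. GSE1 lacked 6 of the 21 regions that the other 3 lists held in it, ZFHX3 5 of 10, WWOX 4 of 9, WWP2, an E3 ubiquitin ligase, 4 of 5, MRTFB 3 of 4 and SNX29, a sorting nexin, 3 of 8. These genes differ in length, 507 kb for GSE1, 1110 kb for WWOX and 179 kb for WWP2. Taking only the regions that the other 3 lists held, in order along the chromosome, the absent ones came in 2 runs of 4, 4 runs of 3 and 21 runs of 2. Of all such regions on the chromosome, 179 of 1103 (16.2%) were absent. Whether the runs or the gene counts exceed what that share would give was not tested, so no clustering is read from them. Both runs of 4 lay within a gene, over 134 kb in WWP2 and over 424 kb in WWOX. The control peaks of the WWP2 run measured 362, 520, 629 and 838 bp, and those of the WWOX run 502, 795, 626 and 520 bp.

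Of 854 protein-coding genes on the chromosome, 596 had a start peak in the control list, 614 in the IGF2BP1 knockout, 603 in the IGF2BP2 knockout and 583 in the IGF2BP3 knockout. All 4 lists had one at 561 genes (65.7%, against 64.1% on the other chromosomes), and none of the lists at 218 (25.5%, against 29.2%). A start peak was in the other 3 lists and not in the IGF2BP3 knockout list at 11 of 572 genes (1.92%), against 1.16% over all chromosomes. By the same count, 7 of 568 genes (1.23%) lacked it in the control alone, against 1.69% over all chromosomes. For the IGF2BP1 knockout alone it was 0 of 561, against 0.364%, and for the IGF2BP2 knockout alone 10 of 571 (1.75%), against 1.06%. The reference gave a strand for 611 of the 854 genes here and for 15230 of 19179 on the other chromosomes. Either gene end thus served as the start for a larger share of genes on chromosome 16, so these shares are not fully alike.

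METRN, CCP110, TNRC6A, LOC112694756, PLA2G10 and TP53TG3E are those among the 11 whose strand the reference gives. At CCP110 the control peak was 530 bp, and the IGF2BP1 and IGF2BP2 knockout peaks 629 and 761 bp, and an IGF2BP3 knockout peak lay 1439 bp from the control peak. At the internal start of TNRC6A the peaks were 735, 1177 and 611 bp, and the nearest IGF2BP3 knockout peak was 56603 bp away. PLA2G10, a secreted phospholipase, had peaks of 528, 454 and 548 bp, and TP53TG3E had peaks of 367, 439 and 282 bp. TP53TG3E belongs to a family of near-identical copies, among which reads may be assigned to the wrong copy. The absence at CCP110 thus sits close to a peak of the fourth list, that at TNRC6A does not.

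For the other 5 genes either end counted as a start. RPS2, a protein of the small ribosomal subunit, had peaks of 535, 725 and 645 bp at its higher-coordinate end, next to SNHG9, a host gene of small nucleolar RNA, with the nearest IGF2BP3 knockout peak 4519 bp away from the merged region. Within 1 kb of its other end, inside NDUFB10, a subunit gene of respiratory complex I (chr16:1960350-1961688), the peaks were 1283, 1040 and 908 bp. There an IGF2BP3 knockout peak ended 298 bp before the region, on its lower-coordinate side. ITGAX, the integrin CD11c of myeloid cells, had peaks of 526, 546 and 306 bp at its higher-coordinate end. Without a strand in the reference, that end may not be the start of the gene. At HAGHL the control peak was 886 bp and an IGF2BP3 knockout peak lay 454 bp from it, so the call there rests on the 1 kb limit. The IGF2BP2 knockout peak (992 bp) and an IGF2BP1 knockout peak of 891 bp overlapped an IGF2BP3 knockout peak. The IGF2BP2 knockout peak did not overlap the control peak, so the other lists did not share a single site there. LOC102723728, a gene without an established name, had peaks of 495, 812 and 468 bp.

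Starts of 20 noncoding genes fell in the same class, among them 9 long noncoding RNAs, 2 small nucleolar RNAs and 2 microRNAs. No share of noncoding starts, on this chromosome or over all, is given here, so whether 20 is many or few cannot be told. The small nucleolar RNAs are SNORA10 and SNORA78, which lie with SNHG9 at the RPS2 locus, and the microRNAs are MIR1225, in PKD1, and MIR11401. Several of these starts share 1 region with a gene above and are not separate observations.

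Promoter sequence was compared over the 250 bases before each start that the RefSeq table gives. In 11 stretches the overlapping region was absent from the IGF2BP3 knockout list alone, and in 658 it was in all 4 lists. At LOC124903643, which is among the 11, the control peak of the region did not reach the stretch itself. The 11 stretches lie over 10 regions, since 2 of them are CHD9 starts in the same region. Median GC content was 52.4% (range 34.8 to 83.6) in the first set and 68.4% in the second. The ratio of observed to expected CpG was 0.542 and 0.879. The GC box GGGCGG was in 5 of 11 stretches (45.5%), against 75.1% of those in all 4 lists and 42.6% of all promoters of the same length in the genome. The ETS motif CCGGAAG was in 2 (18.2%), against 23.1% and 8.52%. The AP-1 motif TGANTCA was in 2 (18.2%), at an internal MRTFB start and at LINC02192, against 2.58% and 6.57%. AGGGGGC, taken from the CTCF motif, was in 5 (45.5%), against 22.2% and 13.3%, and it can overlap a GC box. All were searched on both strands. With 11 stretches, these shares describe the starts named and no more.

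Where all 4 lists held a region, its width could be compared, taking the widest peak of each list. On chromosome 16, the IGF2BP3 knockout peak was narrower than the control peak in 655 of 924 regions (70.9%), against 55.8% over all chromosomes. The median log2 width ratio was -0.136 on chromosome 16 and -0.029 on the others, the lowest median of 23 chromosomes, followed by chromosome 19 (-0.116) and chromosome 2 (-0.078). In the IGF2BP1 knockout 232 of 924 regions (25.1%) were narrower than in the control, against 24.8% over all chromosomes, with a median log2 ratio of 0.101. In the IGF2BP2 knockout 507 (54.9%) were narrower, against 51.1%, with a median of -0.027.

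The width difference had nearly the same median on both arms, -0.132 on the short arm and -0.136 on the long arm. At gene starts the median log2 width ratio, IGF2BP3 knockout over control, was -0.114 on chromosome 16 and -0.003 on the other chromosomes. Away from gene starts it was -0.175 and -0.056. Here too, either gene end served as the start for a larger share of genes on chromosome 16. Gene starts on chromosome 16, where few regions were absent, thus still had narrower peaks in that list. Among windows with at least 20 regions, the median was lowest at 75 to 80 Mb (-0.240) and 85 to 90 Mb (-0.232) and nearest to 0 at 50 to 55 Mb (-0.018).

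Single regions with a large width difference at named genes were chosen after their values were seen. Each width is that of the widest peak of a list in the region, which is smaller where a list splits a site into several peaks. At STUB1, a chaperone-associated ubiquitin ligase (chr16:679022-680641), the control peak measured 1433 bp and the IGF2BP1, IGF2BP2 and IGF2BP3 knockout peaks 1388, 747 and 378 bp. At MTSS2 and VAC14 (chr16:70685189-70687578) they were 1786, 1586, 1993 and 538 bp, and at NDRG4 (chr16:58499742-58501849) 1789, 2105, 2031 and 588 bp. The IGF2BP3 knockout was lowest at all 3, while STUB1 was also narrow in the IGF2BP2 knockout. In the opposite direction, HS3ST2, a heparan sulfate sulfotransferase (chr16:22813116-22814517), had 380 bp in the control and 1186, 1213 and 1252 bp in the 3 knockouts. MT2A, a metallothionein (chr16:56608051-56610352), had 984, 2302, 789 and 1746 bp.

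The widest chromosome 16 peak was the same in every list. It lay at chr16:46398542-46401554 in the control, just past the long peakless stretch and nearest to SHCBP1, and measured 3013, 3054, 3215 and 3175 bp. Next in the control were peaks in GSE1 (2450 bp), at SPATA2L (2387 bp), near ZNF629 (2381 bp) and at ALDOA, a glycolytic enzyme (2300 bp). In these 4 regions the widest IGF2BP3 knockout peaks measured 1117, 1562, 943 and 1222 bp, and the widest IGF2BP1 knockout peaks 2429, 2454, 2393 and 2164 bp. A list that splits a broad site into several peaks has a smaller value. The widest IGF2BP2 knockout peaks there measured 1187, 1382, 1218 and 1063 bp. Regions named here and in the next paragraph were picked for their width in a single list. A smaller width in another list is thus partly fixed by that choice, and nothing is read from it. The IGF2BP1 knockout had a peak of 2916 bp at TFAP4, where the others had 1486, 1240 and 1246 bp. MMP15, a membrane metalloproteinase, measured 1547, 2429, 2392 and 1250 bp.

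In the IGF2BP2 knockout, FOXF1 with its antisense neighbour FENDRR (2313 bp), ZNF821 (2129 bp) and SOCS1, an inhibitor of cytokine signalling (2114 bp), were among the 5 widest. FOXF1 measured 1373 bp and SOCS1 1343 bp in the IGF2BP3 knockout, against 1593 and 2069 bp in the control. The IGF2BP3 knockout had its second widest peak at MYLK3, a myosin light chain kinase of heart muscle (chr16:46746813-46749193, 2381 bp), where the IGF2BP1 and IGF2BP2 knockout lists had 655 and 675 bp and the control list had no peak. PSME3IP1 (1988 bp), VPS9D1 (1897 bp) and ATXN2L (1878 bp) followed, and the control had 2026, 1550 and 1940 bp there. Of the 40 regions in the IGF2BP3 knockout list alone, the widest were in HSDL1 (792 bp) and in NLRC5, a regulator of MHC class I genes (780 bp).

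Gene groups of the chromosome were read by their start peaks, over lists chosen with earlier results of these data known. The counts below stand beside 561 of 854 protein-coding genes of the chromosome with a start peak in all 4 lists and 218 with none. Counts of absent regions stand beside 16.2% of regions on the whole chromosome and 11.1% over all chromosomes, and no group is set apart from them by a test. Of 35 innate immune and leukocyte genes, 15 had a start peak in all 4 lists, 15 in none and 5 in some. CYLD, SOCS1, NLRC5, TRADD and CIITA were among the first 15, and NOD2, IRF8, MEFV and ITGAM among those without. PYCARD, the inflammasome adaptor ASC, had a peak in the IGF2BP1 knockout (999 bp) and the IGF2BP3 knockout (410 bp) lists. PYDC1, a pyrin-domain protein beside it, had 1121, 970 and 870 bp in the control, IGF2BP1 and IGF2BP3 knockout lists, and an IGF2BP2 knockout peak overlapped that span but did not come within 1 kb of the gene start. CX3CL1, the chemokine fractalkine, had a peak in the IGF2BP1 knockout alone (778 bp). PLCG2, a phospholipase of B cell signalling, had one of 675 bp in the IGF2BP1 knockout and 612 bp in the IGF2BP2 knockout. The IGF2BP3 knockout list lacked 6 of the 30 regions inside these 35 genes that the other lists held, 2 of them in PLCG2, 2 in NFATC3, 1 in CIITA and 1 in ITGAX.

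Among 17 developmental transcription factors, 14 had a start peak in all 4 lists, including IRX3, IRX5, SALL1, FOXF1 and FOXC2, and TOX3 and FOXL1 in none. The IGF2BP3 knockout lacked 8 of 34 regions in these genes, most of them in 1 gene, with 5 in ZFHX3, 2 in ZNF423 and 1 in MAF. The MAF region (chr16:79261171-79262101) had 853, 882 and 505 bp. Of 8 cadherins, which join neighbouring cells, CDH1, CDH3 and CDH15 had start peaks in all 4 lists and CDH8 in the IGF2BP1 knockout alone (1233 bp). The IGF2BP3 knockout lacked 4 of their 11 regions, 2 in CDH8 and 1 each in CDH1 and CDH13.

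Of 12 genes of kidney epithelium, 5 had start peaks in all 4 lists (SCNN1G, PKD1, TSC2, HSD11B2 and SALL1) and 5 in none, among them the defining genes of mature tubules UMOD and SLC12A3. SCNN1B, a subunit of the epithelial sodium channel, had 786, 765 and 500 bp in the 3 knockouts and none in the control, whose nearest peak was 118674 bp away. GLIS2 had a start peak within 1 kb in all lists but the IGF2BP2 knockout, which had a peak in the span of the others but none within 1 kb of a gene end. The IGF2BP3 knockout lacked 1 of 10 regions in these genes, that of PKD1.

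Neuronal genes had a start peak in all 4 lists at 7 of 17 and in none at 8, and the IGF2BP3 knockout lacked 2 of 21 regions. One of these was in DOC2A, a calcium sensor of vesicle release, with 1068, 852 and 572 bp (chr16:30010611-30011678). The other, in RBFOX1, a splicing factor, had 470, 676 and 730 bp, and the nearest IGF2BP3 knockout peak was 1408956 bp away. GSG1L, an auxiliary protein of AMPA receptors, had a start peak in the IGF2BP1 knockout alone (1206 bp). Metallothioneins had start peaks in all 4 lists at MT1E, MT1F, MT1X and MT2A and in none at the other 7, and none of their 3 regions was absent. In the alpha globin cluster HBZ, HBQ1 and NPRL3 had start peaks in all 4 lists and HBA1 in the IGF2BP1 knockout alone, and 0 of the 6 regions inside the listed genes was absent. Within the cluster but outside these genes, a region in the pseudogene HBZP1 (chr16:163980-164695), 1.28 kb from HBM, was absent, with 477, 703 and 658 bp in the other 3 lists.

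Start peaks were in all 4 lists at 30 of 32 zinc finger genes, 24 of 25 genes of chromatin and genome maintenance and 17 of 18 genes of the ribosome, proteasome, RNA polymerase and mitochondria. The exception among the last was RPS2, and among the chromatin genes BRD7, a subunit of a chromatin remodelling complex. At BRD7 the control peak was 944 bp, the IGF2BP1 and IGF2BP3 knockout peaks were 1138 and 959 bp, and the nearest IGF2BP2 knockout peak was 98366 bp away. Regions absent from the IGF2BP3 knockout list numbered 1 of 37, 4 of 34 and 3 of 20 in these 3 groups. The 4 in chromatin genes were in CREBBP, SETD1A, CHD9 and CTCF. Of 57 members of duplicated families, 19 had start peaks in all 4 lists and 31 in none, and the 7 others, copies of TP53TG3 and SULT1A, are uncertain because reads of near-identical copies can be split between them.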

How the data were processed

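Peak lists were deposited by the authors as BED files, 1 per group, with chromosome, start and end and no count, height or score. Per the submitters' processing notes, the tools were fastp (0.24.1), BWA (0.7.17), MACS2 (3.0.0) and bedtools, on GRCh38. How libraries were joined, the peak threshold and any shift for the transposase are not given in the sources used here. Depth per sample is unknown, so its precision cannot be given. Per the labels, libraries were made with Omni-ATAC buffers.

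Starts were converted to count from 1. Peaks overlapping by at least 1 bp were merged into regions with Python 3.11.15, numpy 2.4.6 and pandas 2.3.3, and the merging was tested on simulated data. Windows of 5 Mb took peaks by their centre. Genes, starts and promoters came from RefSeq tables of GRCh38.p14. Of the 854 protein-coding genes, 611 had a strand, and for the rest either gene end served as the start. Exons were not used here, and a planned motif search at peak centres was replaced by promoters because no genome was used. The zinc finger gene ZNF720 did not match the table.

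Members and gene lists were chosen with earlier results of these data known. Named regions are the 24 with the largest smallest width in the 3 lists that hold them, at least 1 kb from an IGF2BP3 knockout peak. Also named are every protein-coding gene whose start peak is missing from that list alone (1 of them is not reported here), listed genes with a start peak in some lists, the 3 lowest and 3 highest windows and the 5 widest peaks per list. Alternatives changed the overlap, the peaks kept, the distance to a start, the window size and the width measure.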

Additional observations from a re-analysis of the deposited data

How the results depend on the processing

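No paired analysis was possible because each group is 1 list with no values per library, and for the same reason no replicate could be left out. Limiting the comparison to peaks at gene starts moved the chromosome 16 share relative to control to 1.01 in the IGF2BP1 knockout and to 1.01 in the IGF2BP2 knockout, past 1, and to 0.964 in the IGF2BP3 knockout. Peaks away from gene starts gave 0.683 in the IGF2BP3 knockout. When each list was shortened to its 39194 widest peaks, the regions absent from the IGF2BP3 knockout list numbered 94, or 11.1% of those held by the other 3 lists, against 7.42% on the other chromosomes. That alternative keeps fewer peaks of the knockout lists (1154, 1156 and 989 on chromosome 16). The other 27 values stayed within the interval of the value reported or, for counts, within 1.5 times of it. Of the 11 genes, 7 were also found at 500 bp, 9 at 2 kb (among 15) and 6 with the widest peaks (among 10). Width depends on depth and threshold, which are unknown here, so the lists' own detection limits and the genotype cannot be told apart.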
